A study of Homo sapiens with 6 samples.

Results

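The EGF receptor family was examined in PC3 cells as 10 genes chosen by symbol, out of 24462 symbols in the count files. They comprise 3 receptors (EGFR, ERBB2 and ERBB3), 6 ligands (AREG, EREG, HBEGF, TGFA, BTC and NRG1) and ERRFI1, an intracellular inhibitor of the receptors. PC3 is an established human prostate cancer line that was derived from bone metastatic tissue. RNA was sequenced from 6 samples of these cells grown in serum-containing RPMI1640, of which 3 received a non-targeting siRNA (si-Control) and 3 received siRNA against CITED2 (si-CITED2), a transcriptional co-regulator that binds p300 and CBP. Both groups were given 80 nM siRNA and were analysed after 72 h. The study describes this sequencing experiment as repeated independently, while the labels do not tie the samples to separate cultures, and p-values measure the spread between these samples. The methods list 1 siRNA sequence against CITED2 and 1 control sequence, although the labels write of siRNAs in the plural, and the comparison is between these siRNAs in 1 cell line, and the study used it to see how gene expression differed after CITED2 silencing.

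The receptors of this family are tyrosine kinases that pair with each other when a ligand binds. AREG, EREG, HBEGF, TGFA and BTC are made as membrane-bound precursors, released by proteases of the ADAM family, and bind EGFR, with HBEGF, EREG and BTC also binding ERBB4. NRG1 binds ERBB3 and ERBB4. ERBB2 has no known soluble ligand and acts as a partner, and ERBB3 has a weak kinase and signals through its partner. Active receptors feed the RAS-ERK and PI3K-AKT pathways, and carcinoma cells often make both receptor and ligand.

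The library totals ranged from 19508925 to 28936374 counts, and 3 counts, taken as the smallest detectable level, corresponded to 0.104 to 0.154 CPM (counts scaled to the library total). CITED2 mRNA, the target of the siRNA, was not lower in the si-CITED2 group. It was 859, 892 and 773 normalized counts in si-Control replicates 1, 2 and 3 and 1084, 921 and 984 in the libraries labelled si-CITED2, with a log2 fold change of 0.24 and a standard error of 0.074 (adjusted p = 0.0363 from edgeR). This call was lost in 4 of the 6 fits that left out a library, with log2 fold changes from 0.17 to 0.29. The knockdown of the study rests on an immunoblot of the protein, which was not analysed here, and the direction of each difference given here is that of the libraries labelled si-CITED2 against si-Control. Markers expected in the cell line were present, with KRT8 at 745 to 958 CPM and VIM at 1262 to 1560 CPM, and KLK3, absent from PC3, had at most 2 counts in a library. The summed level was 0.503 to 0.827 CPM for 3 endothelial markers, 0.846 to 1.61 CPM for 5 leukocyte markers and, for 6 fibroblast markers, 5.53 to 5.71 CPM in si-Control and 6.62 to 7.61 CPM in the libraries labelled si-CITED2, mostly from COL1A1. The 3 erythroid markers summed to 0.0503 to 0.208 CPM in si-Control and to 1.11 to 1.41 CPM in the libraries labelled si-CITED2, mostly from HBB, which was at 0 in si-Control and at 0.923 to 1.29 CPM in the other group. The part of these markers in the results was not tested.

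AREG and EREG, which gave the largest falls of the family, are neighbouring genes. In the RefSeq annotation the protein-coding genes EPGN, EREG, AREG and BTC follow each other on chromosome 4, and all of them encode ligands of this family. The 250 bases before the transcription start are shown for AREG and EREG, and for HBEGF on chromosome 5, which rose, because these 3 genes carry the main differences of the family. The sequences come from RefSeq (GRCh38.p14) and are read 5′ to 3′ on the gene's strand, at chr4:74444886-74445135 (plus strand) for AREG, chr4:74364895-74365144 (plus strand) for EREG and chr5:140346604-140346853 (minus strand) for HBEGF. Capitals mark the motifs TGACGTCA (the cAMP response element) and TATAAA (the TATA box).
AREG: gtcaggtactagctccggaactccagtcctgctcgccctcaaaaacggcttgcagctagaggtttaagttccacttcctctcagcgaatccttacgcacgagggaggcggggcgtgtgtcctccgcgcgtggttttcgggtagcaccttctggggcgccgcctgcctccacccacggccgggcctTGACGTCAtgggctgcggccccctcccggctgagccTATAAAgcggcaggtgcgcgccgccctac
EREG: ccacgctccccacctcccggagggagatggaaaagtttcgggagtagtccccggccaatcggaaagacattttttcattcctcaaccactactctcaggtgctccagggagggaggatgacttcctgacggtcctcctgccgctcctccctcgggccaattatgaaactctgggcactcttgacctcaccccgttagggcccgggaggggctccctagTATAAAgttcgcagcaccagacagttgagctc
HBEGF: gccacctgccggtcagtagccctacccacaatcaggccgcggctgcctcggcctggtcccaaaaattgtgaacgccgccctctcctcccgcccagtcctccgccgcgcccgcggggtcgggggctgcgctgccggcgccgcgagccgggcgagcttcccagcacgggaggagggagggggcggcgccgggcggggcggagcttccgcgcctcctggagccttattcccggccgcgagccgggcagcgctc
The cAMP response element was found in AREG, 65 to 58 bases before the start, and in none of the other family promoters at hand. The TATA box was found 29 to 24 bases before the start of AREG and 32 to 27 bases before that of EREG. It was not particular to the genes that fell, since the second of the EGFR start sites listed, in a gene that rose, had it at 36 to 31 and at 146 to 141 bases. A search on both strands also covered the AP-1 site, TGANTCA, which none of these 3 sequences held but which stood before the same EGFR start at 136 to 130 and 232 to 226 bases and before ERBB2 at 222 to 216 bases, and none of the matches overlapped another motif. Among the 35116 promoter windows of the same length, 1.65% held the cAMP response element, 10.7% the TATA box and 6.57% the AP-1 site. The motifs were chosen after these sequences had been seen, and a match is a description of the letters. Promoter entries were at hand for 8 of the 10 genes.

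Of the 10 genes, 9 passed edgeR's filter on low counts, and 6 of these differed between the groups at an adjusted p under 0.05, against 17.4% of the 16314 genes tested. EGFR, HBEGF and TGFA were higher in the libraries labelled si-CITED2 (3 of 9, against 9.36% of all genes). AREG, EREG and ERBB3 were lower (3 of 9, against 8.09%). The median absolute log2 fold change was 0.31 over the 9 genes and 0.14 over all genes tested, and the signed medians were -0.02 and -0.0014. The normalized counts of the groups did not overlap for 8 of the 9 genes, a pattern seen in 32.5% of all genes tested, and BTC and ERRFI1 were among the 8 without passing the adjusted p. In RNA from whole cultures, less RNA per cell and fewer cells that make it cannot be told apart.

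**Figure D1:**
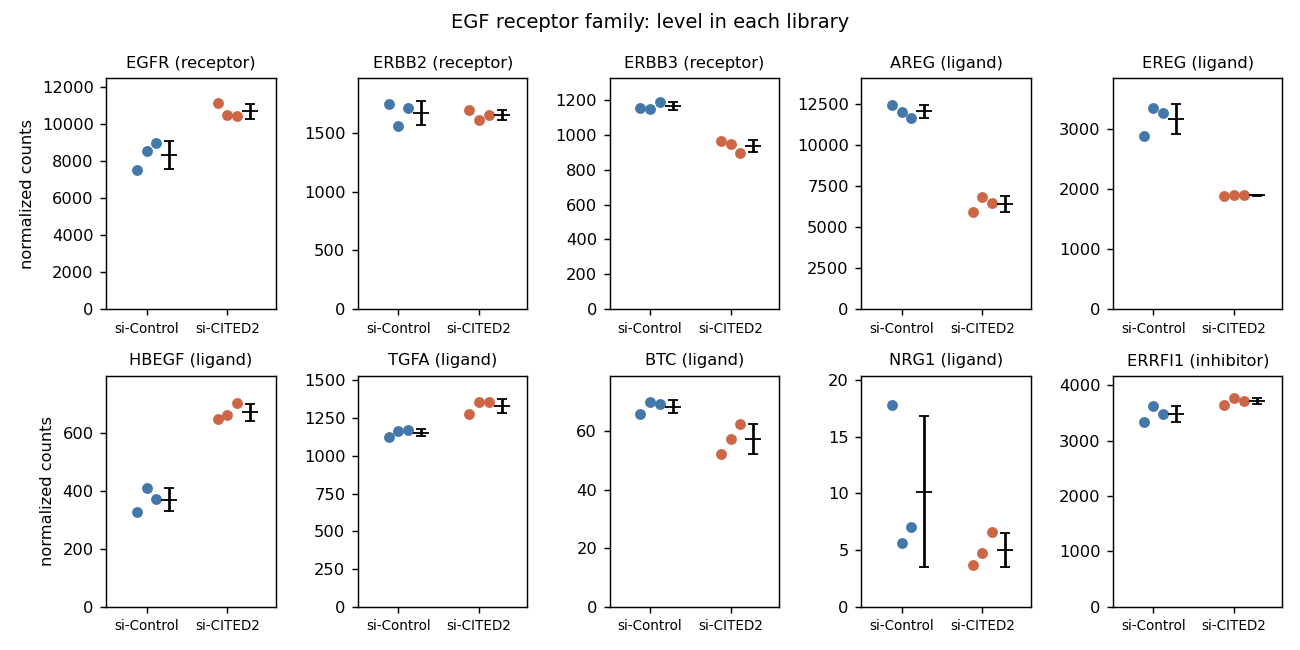
Normalized counts (y axis, from 0) of each family member in the 3 si-Control and the 3 si-CITED2 libraries. Points are libraries in the order of their replicate numbers, and the black marks are the mean and SD of each group. AREG falls from a mean of 12036 to 6388 counts, HBEGF rises from 371 to 673 counts, and the NRG1 points lie under 20 counts.

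Among the receptors, EGFR was the most abundant and rose. Its normalized counts were 7506, 8559 and 8954 in si-Control replicates 1, 2 and 3 and 11156, 10479 and 10425 in the libraries labelled si-CITED2. All 3 of the latter lay above the highest si-Control library, and the mean went from 8340 ± 749 to 10686 ± 407 (SD, n = 3 each). The log2 fold change was 0.36 with a standard error of 0.06 (adjusted p = 0.000427 from edgeR), a 1.28-fold rise. EGFR-AS1, an antisense transcript within the EGFR locus, also rose, with a log2 fold change of 0.51 (adjusted p = 0.00562 from edgeR). It held 190 to 235 normalized counts in si-Control and 265 to 321 in the libraries labelled si-CITED2, a small fraction of the EGFR level. Whether strand was used in the counting is not given in the sources used here, so reads of these overlapping genes cannot be told apart.

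ERBB3, the kinase-impaired partner, moved the opposite way. It was counted at 1156, 1146 and 1188 normalized counts in si-Control and at 962, 947 and 897 in the libraries labelled si-CITED2. The groups were well separated relative to their spread, with means of 1163 ± 22.3 and 935 ± 33.7 (SD, n = 3 each). The log2 fold change was -0.31 with a standard error of 0.059 (adjusted p = 0.00117 from edgeR), or 1.24-fold lower. ERBB2, the receptor without a ligand of its own, had 1753, 1559 and 1712 normalized counts in si-Control and 1699, 1609 and 1653 in the other group. The ERBB2 values of the groups overlapped, and the log2 fold change was -0.02 with a 95% interval from -0.14 to 0.11 (adjusted p = 0.883 from edgeR). A change of ERBB2 as large as that of EGFR or ERBB3 lies outside this interval.

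The ligands showed the largest differences in the family, in both directions. AREG (amphiregulin) fell from 12444, 12002 and 11664 normalized counts in si-Control replicates 1, 2 and 3 to 5893, 6838 and 6432 in the libraries labelled si-CITED2. The highest library of the lower group was thus far below the lowest of the higher group, and the means were 12036 ± 391 and 6388 ± 474 (SD, n = 3 each). The log2 fold change was -0.91 with a standard error of 0.056 (adjusted p = 4.4e-09 from edgeR), a 1.88-fold fall that ranked 37 among the 1319 genes called lower. Build hg19, named in the submitters' processing notes, carries a second, near-identical copy of this gene (AREGB), and all AREG counts stood on 1 row. How reads of that copy were assigned is not given in the sources used here, so the absolute level of AREG is uncertain.

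EREG (epiregulin) fell beside its neighbour AREG. It had 2877, 3343 and 3272 normalized counts in si-Control and 1887, 1903 and 1898 in the libraries labelled si-CITED2. The latter were nearly equal to each other and all lay below the si-Control libraries, with means of 3164 ± 251 and 1896 ± 8.29 (SD, n = 3 each). The log2 fold change was -0.74 with a standard error of 0.059 (adjusted p = 1.35e-07 from edgeR), 1.67-fold lower and rank 66 among the genes called lower. The outer genes of the chromosome 4 cluster were weakly expressed and did not pass the test. BTC (betacellulin) had 65.8, 70 and 69.4 normalized counts in si-Control and 52.2, 57.3 and 62.4 in the other group, with a log2 fold change of -0.25 and a 95% interval from -0.63 to 0.13 (adjusted p = 0.4 from edgeR). EPGN (epigen) had 60.4, 84.5 and 58.8 against 70.4, 65 and 63.5 normalized counts, with a log2 fold change of -0.05 and a 95% interval from -0.46 to 0.36. The BTC groups were just separate and those of EPGN overlapped, and at these counts a change of moderate size in either gene could not be resolved. The difference in response among the 4 neighbours was not tested.

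HBEGF (heparin-binding EGF-like growth factor) rose. It had 330, 412 and 372 normalized counts in si-Control and 648, 664 and 707 in the libraries labelled si-CITED2. The lowest value of the higher group was above the highest si-Control value, and the means were 371 ± 41.2 and 673 ± 30.1 (SD, n = 3 each). The log2 fold change was 0.86 with a standard error of 0.088 (adjusted p = 2.56e-06 from edgeR), a 1.81-fold rise that ranked 298 among the 1527 genes called higher. TGFA (transforming growth factor alpha) had 1127, 1165 and 1170 normalized counts in si-Control and 1274, 1354 and 1359 in the libraries labelled si-CITED2. Its groups did not overlap, but the rise was small, with a log2 fold change of 0.20 and a standard error of 0.057 (adjusted p = 0.0201 from edgeR). TGFA-IT1, a transcript from within the TGFA locus, had a log2 fold change of 0.60 with overlapping groups (adjusted p = 0.224). The TGFA call was lost without si-Control replicate 2 (adjusted p = 0.0564), without si-CITED2 replicate 2 (0.0919) and without si-CITED2 replicate 3 (0.0882). NRG1 (neuregulin 1), a ligand of ERBB3, was near the limit of detection. The si-Control libraries had 20, 7 and 6 counts and those labelled si-CITED2 had 3, 5 and 6. NRG1 did not pass the filter and was not tested, and its values overlapped between the groups.

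ERRFI1, also known as MIG6, binds the kinase domain of the receptors and blocks it, and is itself induced by their signaling. It had 3336, 3623 and 3488 normalized counts in si-Control and 3651, 3761 and 3715 in the libraries labelled si-CITED2. The groups were just separate, and the log2 fold change was 0.09 with a 95% interval from -0.01 to 0.20 (adjusted p = 0.242 from edgeR). The upper end of this interval lies below the lower end of that of EGFR, which began at 0.23.

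**Figure D2:**
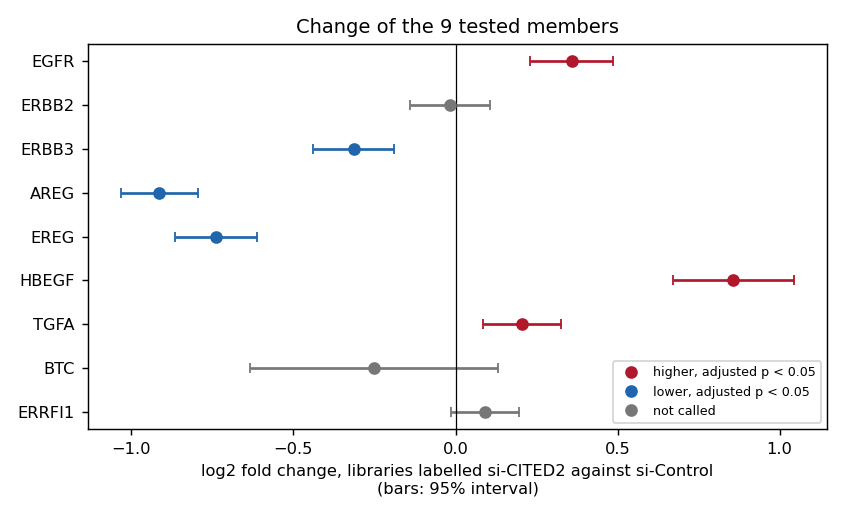
Log2 fold change (x axis) of the 9 tested family members, libraries labelled si-CITED2 against si-Control, with 95% intervals from edgeR's quasi-likelihood fit as bars. AREG at -0.91 and EREG at -0.74 stand to the left of 0, HBEGF at 0.86 to the right, and the intervals of ERBB2, BTC and ERRFI1 include 0.

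To compare levels between genes, normalized counts were divided by the length of the longest coding transcript of each gene in GENCODE 29. In si-Control, AREG held the highest level at 9707 ± 315 normalized counts per kb (SD, n = 3), followed by ERRFI1 at 1122 ± 46.2, EGFR at 849 ± 76.2 and EREG at 685 ± 54.3. ERBB2 at 349 ± 21.4, TGFA at 268 ± 5.42, ERBB3 at 197 ± 3.76 and HBEGF at 156 ± 17.3 came next. BTC at 24.3 ± 0.82 and NRG1 at 1.71 ± 1.12 closed the order, and no neighbours in it overlapped between libraries. In the libraries labelled si-CITED2, AREG was still the highest at 5151 ± 383 per kb, and EGFR at 1088 ± 41.5 came close to ERRFI1 at 1195 ± 17.7. There HBEGF, at 282 ± 12.6 per kb, stood above ERBB3, at 158 ± 5.7, and its library values overlapped those of TGFA, at 308 ± 11.1. With all coding exons joined as the length, a choice made after the data were seen, AREG kept the first place and NRG1 the last in both groups, but EGFR at 943 came before ERRFI1 at 889 per kb, and HBEGF at 282 before TGFA at 277, in the libraries labelled si-CITED2.

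The summed level of the 6 ligands followed AREG. It was 11084, 10871 and 10568 normalized counts per kb in si-Control and 5747, 6541 and 6233 in the libraries labelled si-CITED2. AREG made up 89.5% ± 0.876 of the sum in si-Control and 83.4% ± 0.831 in the other group (SD, n = 3 each). HBEGF went from 1.44% ± 0.174 to 4.58% ± 0.28 and TGFA from 2.47% ± 0.105 to 5% ± 0.177, while the share of EREG was 6.33% ± 0.613 and 6.67% ± 0.409, with overlapping libraries. The level of AREG per kb relative to HBEGF was 72.6, 56 and 60.4 in si-Control and 17.5, 19.8 and 17.5 in the libraries labelled si-CITED2. That of AREG relative to EREG was 16.1, 13.4 and 13.3 against 11.6, 13.4 and 12.6, so that these ratios overlapped. These sums and ratios are descriptions of mRNA and were not tested.

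**Figure D3:**
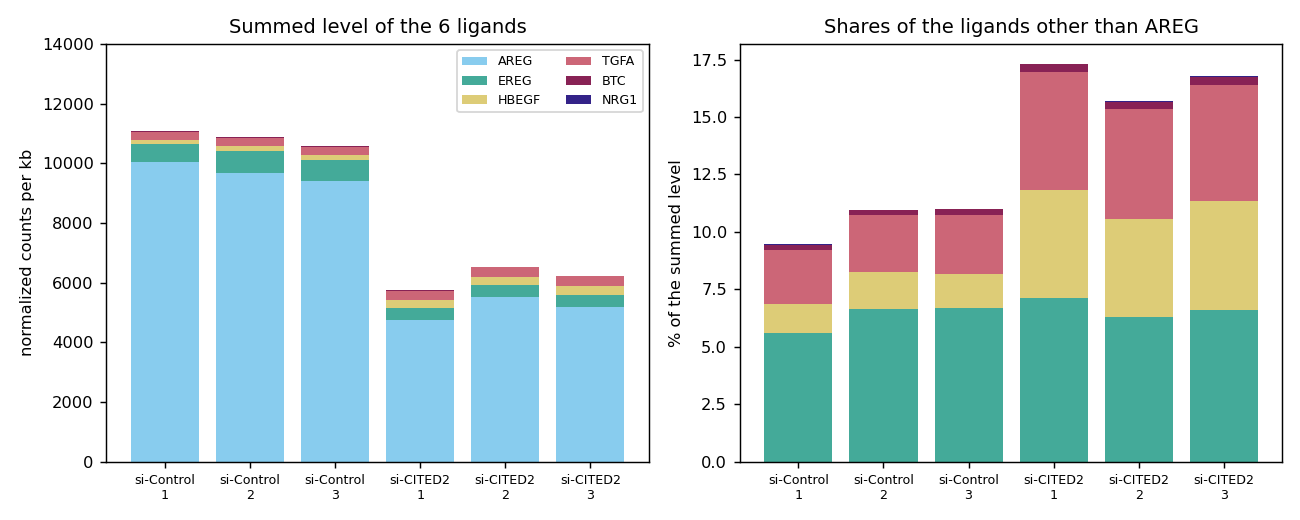
Left, summed level of the 6 ligands in each library as stacked bars (normalized counts per kb, y axis from 0). Right, percent of that sum held by each ligand other than AREG. The sum lies between 10568 and 11084 in si-Control and between 5747 and 6541 in the libraries labelled si-CITED2, where the HBEGF and TGFA bars take larger shares.

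The balance of the receptors also differed between the groups. EGFR held 57.7%, 62.7% and 62% of the summed receptor level per kb in si-Control and 68.7%, 68.3% and 68.1% in the libraries labelled si-CITED2. ERBB3 held 14.1% ± 0.563 in si-Control and 9.93% ± 0.269 in the other group (SD, n = 3 each). The ratio of EGFR to ERBB3 was 3.91, 4.5 and 4.54 in si-Control and 6.99, 6.67 and 7 in the libraries labelled si-CITED2, without overlap.

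The other genes of the pathway were taken from 6 lists with 76 genes in all. The background for each count is the share of all genes tested, 9.36% called higher and 8.09% called lower, with a median log2 fold change of -0.0014. The first list holds the family genes that are not among the 10 (EGF, EPGN, NRG2, NRG3, NRG4 and ERBB4). Of its 5 tested genes, 1 was lower (8.09% of all genes) and 0 were higher (9.36%) at an adjusted p under 0.05, and the median log2 fold change was -0.10. NRG2, a neuregulin, went from 309 ± 16.1 to 248 ± 14.6 normalized counts (SD, n = 3 each), a log2 fold change of -0.32 (adjusted p = 0.0386 from edgeR). In 5 of the 6 fits that left out a library, all but that without si-Control replicate 1, the list had 0 genes called lower. ERBB4 was near the limit of detection, at 14.8 normalized counts in si-Control, so EGFR, ERBB2 and ERBB3 were the receptors measured at length here.

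Among genes of ligand shedding, 3 of 11 tested were higher (against 9.36% of all genes), 1 was lower (against 8.09%, so near the background) and the median log2 fold change was 0.14. ADAM10, a protease that releases several of these ligands, rose from 2860 ± 101 to 3515 ± 112 normalized counts (SD, n = 3 each), a log2 fold change of 0.30 (adjusted p = 0.000469 from edgeR). RHBDF2, the iRhom protein that brings ADAM17 to the cell surface, rose by a log2 fold change of 0.36 (adjusted p = 0.000757), from 938 ± 58.7 to 1204 ± 47.5. ADAM17 itself, the main protease for AREG, HBEGF and TGFA, had a log2 fold change of 0.13 with an adjusted p of 0.133, which missed the threshold. ADAM15 fell from 2759 ± 76.2 to 2397 ± 86.3 normalized counts, a log2 fold change of -0.20 (adjusted p = 0.0109). The count of lower genes was 2 without si-Control replicate 1 and 0 without si-CITED2 replicate 2.

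Of 15 adaptor and docking genes, 3 were higher (9.36% of all genes) and 1 was lower (8.09% of all genes, so near the background), with a median log2 fold change of 0.09. RASA1, a GTPase-activating protein that switches RAS off, rose by 0.34 on the log2 scale (adjusted p = 0.000222 from edgeR), and SOS2, an exchange factor that switches it on, by 0.30 (adjusted p = 0.000358). GRB7, an adaptor whose gene lies close to ERBB2 and is often amplified with it, fell from 349 ± 19.5 to 246 ± 42.7 normalized counts (SD, n = 3 each), a log2 fold change of -0.50 (adjusted p = 0.00688). In the RAS-ERK cascade, 1 of 11 genes was higher, a share near the 9.36% of all genes, 0 were lower, and the median was -0.01. The gene was NRAS, with a log2 fold change of 0.24 (adjusted p = 0.00436).

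The genes of receptor turnover and restraint had 5 of 22 higher (9.36% of all genes) and 3 lower (8.09% of all genes), with a median log2 fold change of 0.02. UBASH3B (STS-1), a phosphatase that limits the CBL-driven degradation of EGFR, rose from 2373 ± 108 to 3621 ± 131 normalized counts (SD, n = 3 each), a log2 fold change of 0.61 (adjusted p = 3.12e-07 from edgeR). SH3KBP1 (CIN85), an adaptor of CBL in receptor endocytosis, rose from 5183 ± 184 to 7611 ± 94.2, a log2 fold change of 0.55 (adjusted p = 2.54e-07). LRIG3 fell by 0.27 on the log2 scale (adjusted p = 0.0316), and PTPN1, the phosphatase PTP1B, by 0.22 (adjusted p = 0.00464). Without si-Control replicate 3 the count of higher genes was 3, and without si-Control replicate 2 or si-CITED2 replicate 2 the count of lower genes was 1.

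The last list holds 10 genes whose mRNA is commonly read as output of ERK signaling, and 6 of these were higher (9.36% of all genes) and 1 was lower (near the 8.09% of all genes), with a median log2 fold change of 0.19. EPHA4, an ephrin receptor at a low level, went from 26.8 ± 9.84 to 50.9 ± 3.38 normalized counts (SD, n = 3 each), a log2 fold change of 0.95 (adjusted p = 0.0229 from edgeR). DUSP4, an ERK phosphatase, rose from 496 ± 50 to 702 ± 64, a log2 fold change of 0.50 (adjusted p = 0.000727). SPRY2, a feedback inhibitor of receptor tyrosine kinases, fell from 291 ± 28.2 to 225 ± 15.8, a log2 fold change of -0.38 (adjusted p = 0.0244). The others called higher were DUSP6, CCND1, ETV4 and ETV5, with log2 fold changes from 0.18 to 0.40, while PHLDA1, EPHA2 and SPRY4 did not pass. The count of higher genes was 3 without si-Control replicate 1, without si-CITED2 replicate 2 or without si-CITED2 replicate 3. The fall of SPRY2 lost its call in 4 of the 6 fits that left out a library, those 3 and the fit without si-Control replicate 2.

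**Figure D4:**
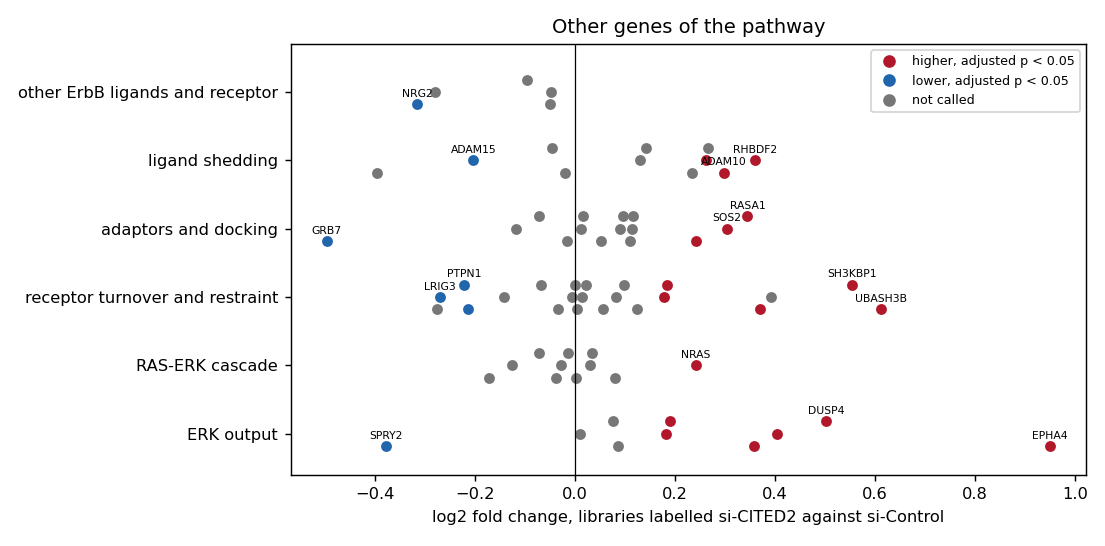
Log2 fold change (x axis) of each tested gene in the 6 pathway lists (y axis), libraries labelled si-CITED2 against si-Control, coloured by the call at an adjusted p under 0.05. Up to 2 called genes in each direction are named per list, from GRB7 at -0.50 to EPHA4 at 0.95, and most genes of the RAS-ERK cascade lie near 0.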

How the data were processed

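Each sample has 1 file, in which the authors deposited unnormalized read counts by gene symbol. The submitters' processing notes name TopHat, edgeR and hg19 without versions or roles. The counting program, annotation and strand setting are not given in the sources used here, and the labels name a SMARTer mRNA-seq kit. Where a symbol had several rows (286 of 24462), only its largest row by summed counts was used, at a loss of 0.0821% of all counts. In R 4.3.3, edgeR 4.0.16 was run on the whole table with its default filter (16314 genes), TMM normalization and the quasi-likelihood test of group, unpaired as in the study, and p-values were adjusted by Benjamini-Hochberg. Genes with an adjusted p under 0.05 were called. Normalized counts were obtained by scaling each library, by its TMM-adjusted size, to the mean size. With 3 libraries per group no exact permutation p can fall below 0.1. No pair of replicates was as alike as sampling noise would leave them (lowest ratio of chi-square to its degrees of freedom, 2.89). The genes named were the family members, CITED2 and, per list, up to 2 called genes with the largest rise and 2 with the largest fall. EGFR-AS1 and the list genes named beyond this rule, such as ADAM17, EPGN, ERBB4 and CCND1, were named after their values were seen. TGFA-IT1 was also named outside this rule. The members and lists were chosen with earlier results of these data known, and the scripts were tested on simulated data. Alternatives were a replicate block, DESeq2 1.42.0, other scalings and filters, summed rows and leaving out each library.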

Additional observations from a re-analysis of the deposited data

How the results depend on the processing

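AREG, EREG, ERBB3, EGFR and HBEGF kept their direction and an adjusted p under 0.05 in each of the 13 alternatives, with log2 fold changes from -0.97 to -0.86, -0.80 to -0.70, -0.34 to -0.28, 0.29 to 0.41 and 0.77 to 0.94. TGFA passed in 10 of 13 and CITED2 in 8 of 13. With library size alone in place of TMM, CITED2 had an adjusted p of 0.0518. ERBB2 had log2 fold changes from -0.0684 to 0.0181, and the positive value came without si-Control replicate 1. NRG1 could be tested only with no filter on low counts, which gave a log2 fold change of -1.01 with a 95% interval from -2.21 to 0.19 (adjusted p = 0.33 from edgeR). Leaving out each library gave 1135 to 1519 genes called higher, 881 to 1328 lower, 2 to 3 family members higher and 3 lower. In the same fits the genes called ranged from 3 to 5 (higher) and 0 to 1 (lower) for ERK output, 0 to 2 (lower) for ligand shedding, 0 to 1 (lower) for the other ErbB genes, and 3 to 4 (higher) and 1 to 3 (lower) for receptor turnover. Shedding genes called lower were 2 with the replicate block or no filter, the other ErbB genes called lower were 0 with the replicate block or DESeq2, and turnover genes called higher were 3 with library size alone. The causes were not tested. Same-numbered samples showed no clear shared deviation (r across genes from -0.037 to 0.046, and 1 of 3 si-Control samples matched its own number best). With 3 samples per group this cannot show whether the numbers pair the samples. With the replicate block, 1405 genes were higher and 1154 lower, with 3 members in each direction. BTC had 43 to 87 counts per library and NRG1 had 3 to 20, and the part of sequencing depth in their results was not tested.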
